A study of Mus musculus with 4 samples.

Results

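The genes described here are Inmt, Tbc1d10c, Phkg1, Pla2g5, Ano10, Cngb3, Sorcs2 and Smco2, 8 of the 21658 genes that could be named on the array. They were chosen from these same data because a probe of each was over 2-fold lower after transverse aortic constriction (TAC) than after sham surgery at both 2 and 8 weeks, with signal well above background on all 4 arrays. Through their RefSeq transcripts they have 13 of the 55681 probes other than controls. The values at the probes that met the rule therefore describe the choice and are no evidence for it. By the smaller of their falls the 8 chosen probes held ranks 3, 4, 5, 8, 9, 10, 11 and 13 among the 38 probes that met the rule, so they are among the deepest falls and not all of the deepest. Ccl11, the chemokine eotaxin, is one that ranked above them.

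Hearts of male C57BL/6J mice were compared at 2 and at 8 weeks after TAC, a surgical narrowing of the aortic arch that loads the left ventricle with pressure, or after the sham operation. The study screened these hearts for intergenic transcripts during remodeling, and the same arrays carry probes for protein-coding genes. Each of the 4 conditions is 1 array that held the total RNA of the hearts of 4 to 6 mice, mixed before hybridization. The labels give an age of 10 weeks for both groups at 2 weeks and of 16 weeks for both groups at 8 weeks, whereas the methods give 12 weeks at surgery. The labels name no transgene or deletion, and by the labels the groups of a time differ only in the operation. Since a condition is 1 pool, its spread between mice is not known, every change below is a ratio of 2 pools, and no test was made. In whole hearts, fewer cells of a type and less RNA per cell cannot be told apart.

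The 8 genes belong to different pathways. Inmt encodes indolethylamine N-methyltransferase, which moves methyl groups from S-adenosylmethionine onto tryptamine and related amines. Phkg1 encodes the catalytic gamma subunit of muscle phosphorylase kinase, the enzyme that switches on glycogen phosphorylase, and Pla2g5 encodes the group V secreted phospholipase A2, which releases fatty acids from membrane phospholipids. Tbc1d10c encodes carabin, an inhibitor of the phosphatase calcineurin and of Ras that is known from lymphocytes. Calcineurin, held in check by such inhibitors, is a known driver of cardiac hypertrophy through NFAT transcription factors. The other four encode membrane proteins: Ano10 an anoctamin that scrambles lipids in the endoplasmic reticulum, Cngb3 the beta subunit of the cyclic nucleotide-gated channel of cone photoreceptors, Sorcs2 a sorting receptor of the VPS10P family that binds proneurotrophins, and Smco2 a single-pass membrane protein with a coiled coil.

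Promoter sequences are shown for 3 of the genes. The chosen probes of Inmt and Ano10 had falls of nearly the same size, and the windows of these genes differ in base composition. The other Ano10 probe did not fall. The pair of Pla2g5 probes is named by a pair of transcripts with separate starts. Each window runs from 250 bases before to 50 bases after a transcript start, 5′ to 3′ on the strand of the gene, as RefSeq gives it on GRCm38.p6. The array annotation is on mm9, and no coordinate was moved between the builds. Capitals mark, on either strand, TATAAA, the E-box CANNTG, the GATA motif AGATAA and the MCAT motif CATTCC, and no marked match overlaps another in these 4 windows. The windows are Inmt on the minus strand (chr6:55174941-55175240), Ano10 on the minus strand (chr9:122294374-122294673), and for Pla2g5, also on the minus strand, the upstream start (chr4:138863420-138863719) and the start inside the gene (chr4:138819208-138819507).
Inmt: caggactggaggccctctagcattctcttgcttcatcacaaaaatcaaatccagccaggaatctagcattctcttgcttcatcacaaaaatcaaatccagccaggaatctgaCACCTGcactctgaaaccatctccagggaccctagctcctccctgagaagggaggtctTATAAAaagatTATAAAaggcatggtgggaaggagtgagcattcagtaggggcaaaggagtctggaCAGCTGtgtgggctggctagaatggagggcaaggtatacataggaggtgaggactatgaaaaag
Ano10: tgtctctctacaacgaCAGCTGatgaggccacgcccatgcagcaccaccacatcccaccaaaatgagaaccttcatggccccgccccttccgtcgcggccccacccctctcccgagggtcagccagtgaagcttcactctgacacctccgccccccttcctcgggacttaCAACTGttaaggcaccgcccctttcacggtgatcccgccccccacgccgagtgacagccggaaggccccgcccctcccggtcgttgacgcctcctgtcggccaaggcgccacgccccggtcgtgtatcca
Pla2g5 upstream start: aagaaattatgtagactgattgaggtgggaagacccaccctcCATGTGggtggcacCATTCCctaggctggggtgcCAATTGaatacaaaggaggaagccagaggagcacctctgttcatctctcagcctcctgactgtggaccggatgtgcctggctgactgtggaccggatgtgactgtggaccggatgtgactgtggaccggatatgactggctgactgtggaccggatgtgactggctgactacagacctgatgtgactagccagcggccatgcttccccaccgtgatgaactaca
Pla2g5 inner start: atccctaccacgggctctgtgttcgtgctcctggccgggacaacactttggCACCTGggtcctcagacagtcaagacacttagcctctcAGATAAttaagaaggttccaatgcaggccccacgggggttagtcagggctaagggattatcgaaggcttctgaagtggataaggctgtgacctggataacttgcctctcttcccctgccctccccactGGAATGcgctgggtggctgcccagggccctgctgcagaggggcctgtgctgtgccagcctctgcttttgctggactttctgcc

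The Inmt window held 0 CpG dinucleotides and a GC content of 47.7%, with a pair of TATAAA motifs that begin 80 and 69 bases before the start. TATAAA occurs in 13.6% of the 32851 promoter windows of the table, and Inmt was the only gene among these with a window that held it. The Ano10 window held 24 CpG dinucleotides and a GC content of 65.7%, against medians of 7 CpG and 52.7% over all windows. Both Pla2g5 windows held 1 CATTCC, which 14.7% of windows hold, and the inner one held AGATAA, which 11.2% hold. CANNTG was in every one of the 6 windows found for Inmt, Phkg1, Pla2g5, Ano10 and Smco2, and in 72.3% of all windows. None of the 6 windows held the E-box CACGTG, the nuclear receptor half-site AAGGTCA, the NFAT core GGAAAA, a MEF2 site or a CArG box, which occur in 7.15%, 4.72%, 23.4%, 3.19% and 1.63% of windows. No motif other than the E-box was shared by different genes of this set, and a match or its absence in such a window is a description of letters only. Tbc1d10c, Cngb3 and Sorcs2 had no window in the table.

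The processed signal of a spot, an intensity after background subtraction, was divided by the 75th percentile of its array, and differences were taken as log2 ratios. A probe was called lower when both arrays compared were well above background and the ratio passed 2-fold. The 75th percentile lay between 206.0 and 248.5 on the 4 arrays, and between 54.7% and 58.5% of probes were well above background. Hypertrophy genes served as a check of the labels: Myh7, the slow myosin heavy chain, rose by 2.71 and 3.69 on the log2 scale at 2 and 8 weeks, Nppa by 1.84 and 2.65, and Nppb by 1.03 and 1.94, while Myh6 had -0.19 at both times. The cardiomyocyte markers Myh6, Tnnt2, Tnni3, Actc1, Myl2, Myl3, Ryr2, Pln, Mb and Ckm were all measured on every array, as a heart label requires.

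All 13 probes of the 8 genes were well above background on all 4 arrays, and none of their spots was saturated or an outlier. At 2 weeks 8 of the 13 were over 2-fold lower after TAC, against 0.646% of all 29895 measured probes. At 8 weeks it was 11 of 13, against 1.0% of 30411 probes. At both times it was 8 of 13, 1 for each gene as the rule demanded, against 0.13% of the 29262 probes measured on all arrays. The rule used these contrasts, so nothing is read from those counts. Relaxed to 1.5-fold, 11 of the 13 probes were lower at both times, against 1.04% of all measured probes. By any amount 12 of the 13 were below sham at both times, against 38.1%. The rule put the 8 chosen probes in both counts, so nothing is read from these counts either. None of the 13 was over 2-fold higher after TAC, against 0.769% of probes at 2 weeks, 1.42% at 8 weeks and 0.362% at both. For the 8 chosen probes the rule fixed this.

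**Figure D1:**
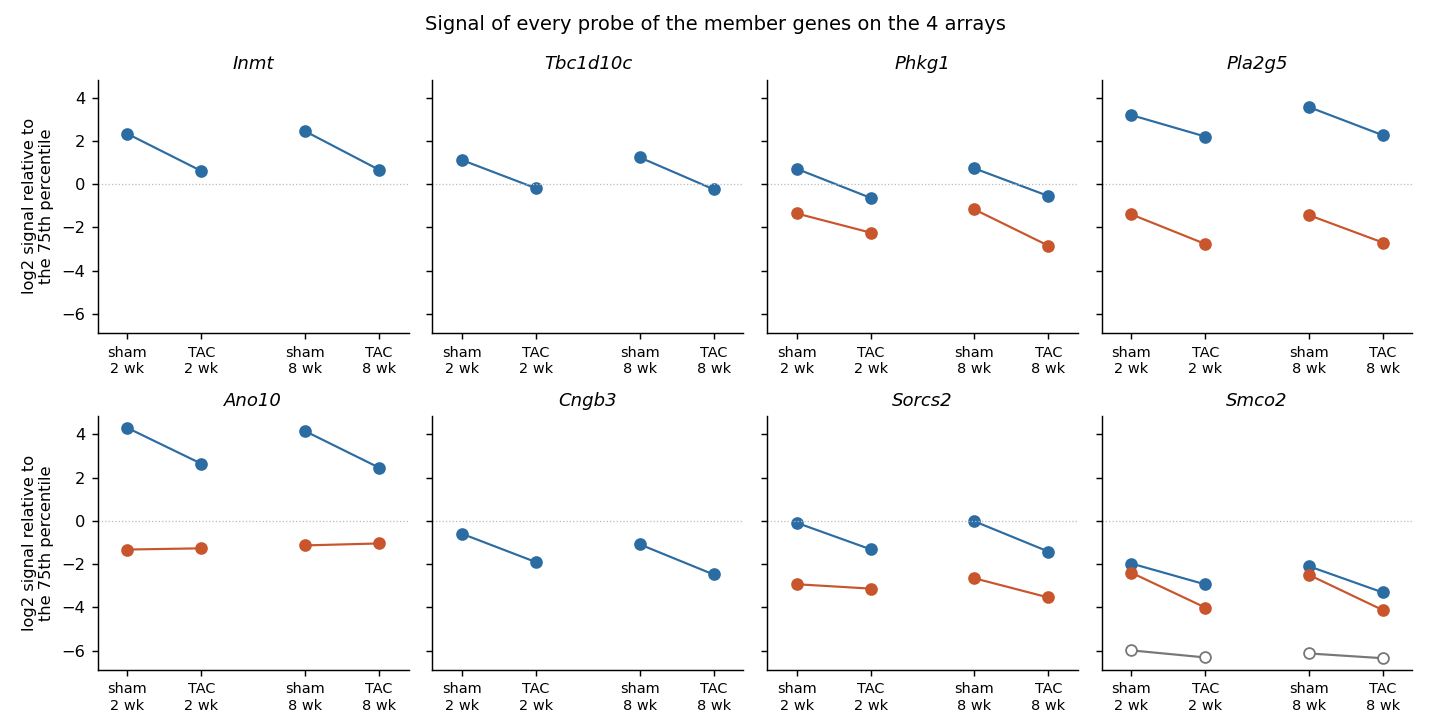
Log2 signal relative to the 75th percentile of the array (vertical axis) of every probe of the 8 genes on the 4 arrays, with 1 pool of hearts per array and lines joining sham and TAC of the same time. Blue marks the probe with the highest signal, orange the second RefSeq probe and grey a Smco2 probe named by Ensembl only, and filled points are well above background. Inmt goes from 2.33 to 0.61 at 2 weeks and from 2.45 to 0.67 at 8 weeks, while the second Ano10 probe is level at -1.33, -1.27, -1.14 and -1.05.

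Inmt, the methyltransferase, had the deepest fall of the 8 genes at both times. Its only probe read 1036 and 1209 in processed signal on the sham arrays at 2 and 8 weeks and 314 and 394 on the TAC arrays, that is 5.02 and 5.47 against 1.52 and 1.59 times the 75th percentile. Both sham pools lay above both TAC pools, by 3.30-fold at 2 weeks and 3.45-fold at 8 weeks. The Inmt gene lies on GRCm38 chromosome 6 from 55170627 to 55174990 on the minus strand, and its RefSeq transcript has 3 exons and encodes 264 codons.

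Phkg1, the phosphorylase kinase subunit, was lower at both of its probes, and the size and the time course differed between them. The names brighter and dimmer only tell the probes of a gene apart, since signals of different probes are not comparable. The brighter probe read 338 and 367 on the sham arrays and 133 and 170 on the TAC arrays, 2.54-fold and 2.43-fold lower. The dimmer probe, named by the same transcript, read 80.6 and 98.6 in sham and 43.5 and 34.6 after TAC, 1.85-fold lower at 2 weeks and 3.20-fold lower at 8 weeks. The sham values lay above the TAC values at each probe, but only the brighter one met the rule, and the change at the dimmer one was deeper at 8 weeks by 0.79 on the log2 scale. Phkg1 lies on chromosome 5 from 129863431 to 129879134 on the minus strand.

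Pla2g5, the secreted phospholipase, was also lower at both probes. The brighter one, named by NM_001122954, read 1891 and 2626 on the sham arrays and 948 and 1193 on the TAC arrays. It was 1.99-fold lower at 2 weeks, just short of the threshold, and 2.47-fold lower at 8 weeks. The dimmer one, named by NM_011110, met the rule with 78.4 and 82.0 in sham and 30.2 and 38.2 after TAC, 2.59-fold and 2.41-fold lower. The transcripts that name these probes share 4 exons, of 6 in the first and 5 in the second, and their coding parts are identical over 137 codons, so the probes differ in the transcript assigned to them and not in the encoded protein. The probe sequences were not used here, and which exon each probe reads is not known. Pla2g5 lies on chromosome 4 from 138799247 to 138863562 on the minus strand.

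Tbc1d10c, the calcineurin inhibitor, was over 2-fold lower after TAC at both times. Its only probe read 447 and 523 on the sham arrays and 180 and 211 on the TAC arrays, 2.16 and 2.36 against 0.88 and 0.85 times the 75th percentile. The sham and TAC values did not overlap, and TAC was 2.47-fold lower at 2 weeks and 2.79-fold lower at 8 weeks. The gene lies on chromosome 19 from 4184357 to 4191195 on the minus strand, with 10 exons and 444 codons in its transcript.

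Ano10 gave the sharpest disagreement between probes. The brighter probe read 4062 and 3937 on the sham arrays and 1285 and 1369 on the TAC arrays, 3.15-fold and 3.23-fold lower. The dimmer one, named by the same transcript NM_133979, read 82.3 and 100.7 in sham and 85.3 and 120.4 after TAC, a log2 change of 0.056 at 2 weeks and 0.090 at 8 weeks. One probe thus had the sham pools far above the TAC pools and the other had sham and TAC overlapping, and which of them stands for the Ano10 transcripts of the heart is not known. RefSeq lists a further transcript, NM_001271873, with 601 in place of 659 codons, which names no probe. Ano10 lies on chromosome 9 from 122175874 to 122294444 on the minus strand.

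Cngb3, the cone channel subunit, was lower after TAC at both times and had the largest difference between sham pools of the 13 probes. Its only probe read 136 and 104 on the sham arrays at 2 and 8 weeks and 54.8 and 44.5 on the TAC arrays. TAC was lower than sham by 2.48-fold at 2 weeks and by 2.63-fold at 8 weeks, and sham was 1.40-fold lower at 8 than at 2 weeks. The gene lies on chromosome 4 from 19280850 to 19510623 on the plus strand, with 18 exons.

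Sorcs2, the sorting receptor, was called lower at both times at 1 of its probes. The brighter probe read 194 and 218 on the sham arrays and 82.6 and 93.0 on the TAC arrays, 2.34-fold and 2.64-fold lower. The dimmer probe of the same transcript read 27.0 and 35.1 in sham and 23.4 and 21.3 after TAC, 1.15-fold lower at 2 weeks and 1.85-fold lower at 8 weeks. At the dimmer probe the 2-week values differed by 0.20 on the log2 scale, less than the SD of 0.29 found when a probe as dim as this was spotted more than once on an array. The gene lies on chromosome 5 from 36017180 to 36398197 on the minus strand.

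Smco2, the coiled-coil membrane protein, was lower after TAC at both of its RefSeq probes. The dimmer one met the rule. It read 39.1 and 39.2 on the sham arrays and 12.8 and 14.2 on the TAC arrays, 3.06-fold and 3.1-fold lower. The brighter probe of the same transcript read 52.6 and 51.6 in sham and 26.8 and 25 after TAC, 1.95-fold and 2.32-fold lower. Sham exceeded TAC at both probes, and a further probe named only by an Ensembl transcript was not well above background on any array. Smco2 lies on chromosome 6 from 146850110 to 146871404 on the plus strand.

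Of the 5 genes with a second RefSeq probe, 0 had both probes over 2-fold lower at both times. Phkg1, Pla2g5 and Smco2 had a second probe that was over 1.5-fold lower at both times, Sorcs2 one that was over 1.5-fold lower at 8 weeks only, and Ano10 one that was not lower. A second probe short of the rule was not limited to these genes. Of the other 23 named genes with a probe over 2-fold lower at both times, 5 had more than 1 measured probe. In 0 of those 5 did every probe pass, but most fell short narrowly. The failing probes of Lgals4 and Nmb had -0.92 and -0.99 at 2 weeks, and that of Clec18a had -0.95 at 8 weeks, each passing at the other time. The other Filip1l probe had 0.49 and 0.26, and the 2 other Ccbe1 probes had 0.64 and -0.83 at 2 weeks and -0.23 and -1.36 at 8 weeks. When the probe with the highest signal stood for a gene, 6 of the 8 genes were over 2-fold lower at both times, against 0.19% of 14247 genes. In these 6 that probe was the chosen one, so the count follows from the choice and nothing is read from it. The exceptions were Pla2g5, at 1.99-fold at 2 weeks, and Smco2, at 1.95-fold at 2 weeks, where the chosen probe was the dimmer one.

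**Figure D2:**
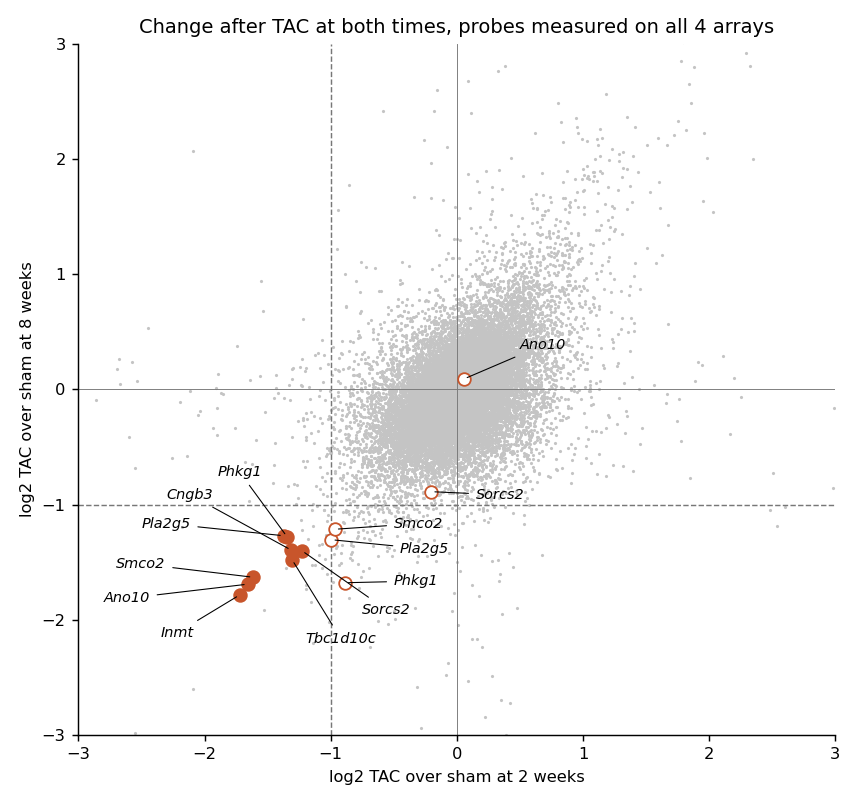
Log2 ratio of TAC over sham at 2 weeks (horizontal) and 8 weeks (vertical) of the probes measured on all 4 arrays (grey, 29227 within the axes and 35 outside), with dashed lines at a 2-fold fall. Filled orange points are the probes of the 8 genes that met the rule and open points their other RefSeq probes. The filled points lie between -1.23 and -1.72 at 2 weeks and between -1.27 and -1.79 at 8 weeks, and the second Ano10 probe lies near 0.

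The falls at the 8 chosen probes had nearly the same size at both times. Their log2 change at 8 weeks minus that at 2 weeks ran from -0.17 at Tbc1d10c to 0.10 at Pla2g5, with a median of -0.05, and the SD of this quantity over all measured probes was 0.37. The change was lower at 8 weeks in 6 of the 8 genes, the exceptions being Phkg1 and Pla2g5, and in 51.5% of all measured probes. The 5 other probes ranged more widely, from -0.79 at Phkg1 to 0.03 at Ano10. The comparisons at 2 and at 8 weeks use separate arrays, but the rule asked for a fall of over 2-fold at both, which narrows the difference that could be seen.

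The comparison of the sham pools with each other was not used by the rule, although the same arrays enter the TAC comparisons. Sham hearts at 8 weeks differed from those at 2 weeks by between -0.49 and 0.37 on the log2 scale over the 13 probes, with a median of 0.07. The central 90% of all measured probes lay between -0.39 and 0.37 in this comparison. Cngb3, at -0.49, and the brighter Pla2g5 probe, at 0.37 and just beyond the upper bound, were outside that range. None of the 13 passed 2-fold, whereas 0.344% of all probes did so downward and 0.394% upward. TAC hearts at 8 weeks differed from those at 2 weeks by between -0.60, at the dimmer Phkg1 probe, and 0.23, at the dimmer Ano10 probe. In 8 of the 13 probes TAC was lower at 8 than at 2 weeks by any amount, against 52.0% of all measured probes. None of these falls passed 2-fold, against 0.576% of all probes, and none of the 13 was over 2-fold higher, against 0.631%.

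Under another background correction 4 of the 8 chosen probes no longer passed 2-fold. With the normexp model and an offset of 50 added to each signal, in place of the scanner's own background subtraction, Inmt was 2.85-fold and 3.09-fold lower, Ano10 3.12-fold and 3.04-fold, Tbc1d10c 2.03-fold and 2.43-fold, and Phkg1 2.00-fold and 2.03-fold at the chosen probes. The other 4 chosen probes were then under 2-fold at both times. Cngb3 was 1.82-fold lower at both, Sorcs2 1.75-fold and 1.96-fold, the chosen Pla2g5 probe 1.37-fold and 1.44-fold, and the chosen Smco2 probe 1.39-fold and 1.46-fold. All 8 stayed below sham. The brighter Pla2g5 probe had 1.99-fold and 2.32-fold. Both steps of this setting were also run apart, after the values were seen. With the offset of 50 added to the processed signal and no normexp, the same 4 chosen probes failed to pass 2-fold at both times: Cngb3 was 1.77-fold and 1.80-fold lower, Sorcs2 1.84-fold and 2.07-fold, Pla2g5 1.60-fold and 1.65-fold, and Smco2 1.42-fold and 1.53-fold. With normexp and no offset, 7 of the 8 chosen probes passed 2-fold at both times, among them Cngb3 at 2.4-fold and 2.47-fold, Sorcs2 at 2.17-fold and 2.43-fold, and Smco2 at 2.20-fold and 2.32-fold, while the chosen Pla2g5 probe had 1.78-fold and 1.82-fold.

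**Figure D3:**
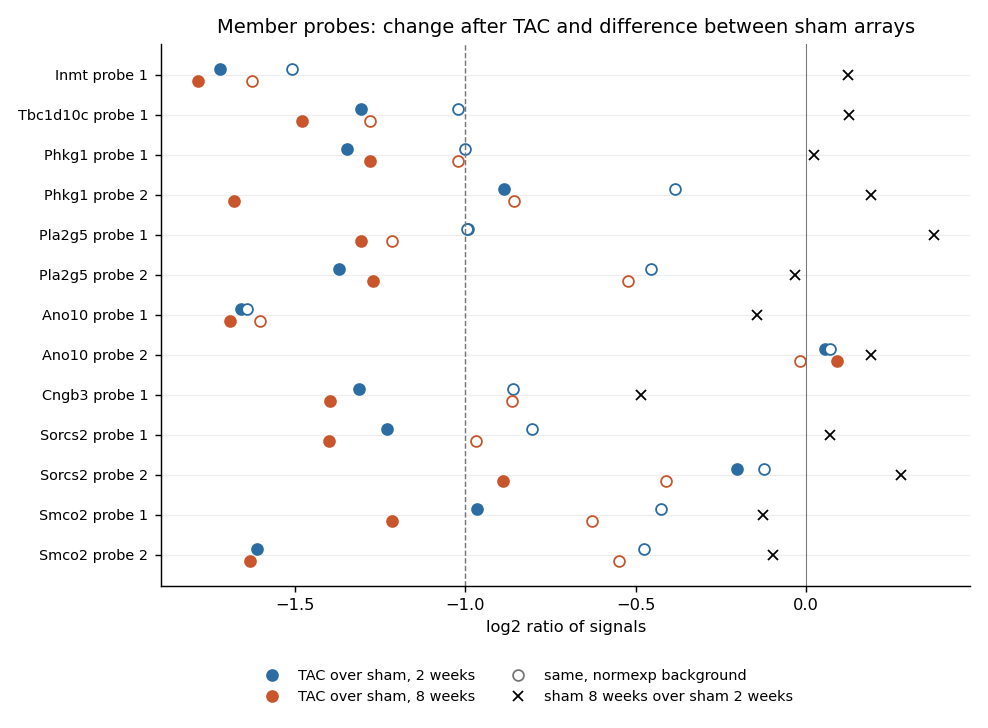
Log2 ratios of the 13 RefSeq probes of the 8 genes, with probe 1 of a gene being the one with the highest signal: TAC over sham at 2 weeks (blue) and 8 weeks (orange), filled with the scanner's background subtraction and open with normexp and its offset, and sham at 8 weeks over sham at 2 weeks (crosses). The dashed line is a 2-fold fall. The filled points of the chosen Smco2 probe, at -1.61 and -1.63, move to -0.47 and -0.55 with normexp, while those of the brighter Ano10 probe stay beyond -1.6, and the crosses lie between -0.49 and 0.37.

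The families and pathways around the 8 genes were set beside them, with the probe of highest signal for each gene. The 8 genes are counted in their lists and medians, and a call of one of them follows largely from the choice. Over all genes measured the median log2 change was -0.01 at both times. TAC was over 2-fold lower in 0.548% of genes at 2 weeks and in 0.878% at 8 weeks, and over 2-fold higher in 0.902% and 1.81%.

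Among 15 genes of amine methylation and tryptamine metabolism, Inmt was the only one over 2-fold lower at 2 weeks, and the medians were -0.15 at 2 weeks and -0.10 at 8 weeks. At 8 weeks Ddc, the decarboxylase that makes tryptamine and dopamine, had -1.02 after 0.38 at 2 weeks, but its other measured probe had -0.16 at 8 weeks. Nnmt and Pnmt, the nicotinamide and noradrenaline methyltransferases closest to Inmt, had 0.49 and -0.16 at 2 weeks and 0.66 and -0.09 at 8 weeks. Hnmt, which methylates histamine, had -0.48 and -0.93. Mat2a, which makes S-adenosylmethionine, had -0.03 at both times.

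For phosphorylase kinase and glycogen metabolism 26 genes were measured, of which Phkg1 was the only one over 2-fold lower at either time and none was over 2-fold higher. The other subunits of the kinase were not called: Phka1 had 0.12 and 0.48, Phka2 -0.22 and -0.05, and Phkb -0.10 and -0.09. Phkg2, the liver form of the gamma subunit, had 0.02 and 0.18. Pygm, the muscle glycogen phosphorylase that the kinase acts on, had -0.41 and -0.28. The medians of the 26 genes were -0.07 and 0.01.

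Of the 8 secreted phospholipases A2 and their receptor that were measured, 1 was over 2-fold lower at 2 weeks and 2 at 8 weeks, with medians of 0.00 and -0.02. The call at 2 weeks was Pla2g2c, and those at 8 weeks were Pla2g5 and Pla2g3. Pla2g2c had -1.27 at 2 weeks and -0.99 at 8 weeks, just outside the rule, with its second probe below background. Pla2g3 had 0.05 and -1.16, from 1 of its 3 probes, since the others were not well above background. Pla2g2d, Pla2g2e, Pla2g2f and Pla2g12a ranged from -0.06 to 0.67 over both times, and the receptor Pla2r1 had -0.25 and 0.22. Of 16 genes of arachidonic acid metabolism, which takes up one of the fatty acids these enzymes release, 0 were over 2-fold lower at either time. Ptgds, a prostaglandin D synthase, was over 2-fold higher at 2 weeks, with 1.09 and 0.79, and Pla2g4a, the cytosolic phospholipase A2, at 8 weeks, with 0.52 and 1.49.

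In the calcineurin list, 14 genes were measured and Tbc1d10c alone was over 2-fold lower, with medians of 0.01 and 0.04. Rcan1, a calcineurin inhibitor that is itself induced by NFAT, had 0.95 at 2 weeks and was over 2-fold higher at 8 weeks, with 1.72. The catalytic subunits Ppp3ca, Ppp3cb and Ppp3cc lay between -0.20 and 0.05 over both times. Of the TBC1D10 family and the Ras GTPase-activating proteins, 10 were measured at 2 weeks and 11 at 8 weeks, and Tbc1d10c alone was called. Its paralogs Tbc1d10a and Tbc1d10b had 0.22 and 0.11 at 2 weeks and 0.10 and 0.20 at 8 weeks.

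Among the membrane proteins, 4 of the 9 anoctamins with a probe were measured, and Ano1, Ano6 and Ano8 lay between -0.17 and 0.37 while the brighter Ano10 probe had -1.66 and -1.69. Of 5 cyclic nucleotide-gated and HCN channels measured, Cngb3 alone was called. Cnga3, its partner subunit in cones, had -0.36 and -0.51. Of the 11 cone phototransduction genes, 5 were measured at each time and Cngb3 was the only one called. Gngt2 and Arr3 were well above background on all 4 arrays, Gngt2 above the 75th percentile of each and Arr3 below it. Their log2 changes were 0.31 and -0.03 at 2 weeks and 0.33 and 0.14 at 8 weeks. The cone transducin Gnat2 and Pde6h were well above background on 2 arrays each and the green cone opsin Opn1mw on 3. The blue cone opsin Opn1sw, the phosphodiesterase Pde6c, Guca1a and Grk1 were so on none. Of 11 VPS10P receptors and neurotrophin genes measured, Sorcs2 alone was called, and Sort1, Sorcs1 and the neurotrophin receptor Ngfr had -0.67, -0.31 and 0.36 at 2 weeks and -0.32, 0.04 and 0.01 at 8 weeks. Sorl1, another receptor of this family, had 0.81 and 0.87. Smco1 and Smco4 were not called, and Smco1, a relative of Smco2 in name and topology, had -0.41 and -0.61 with a second probe at -0.44 and -0.73.

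**Figure D4:**
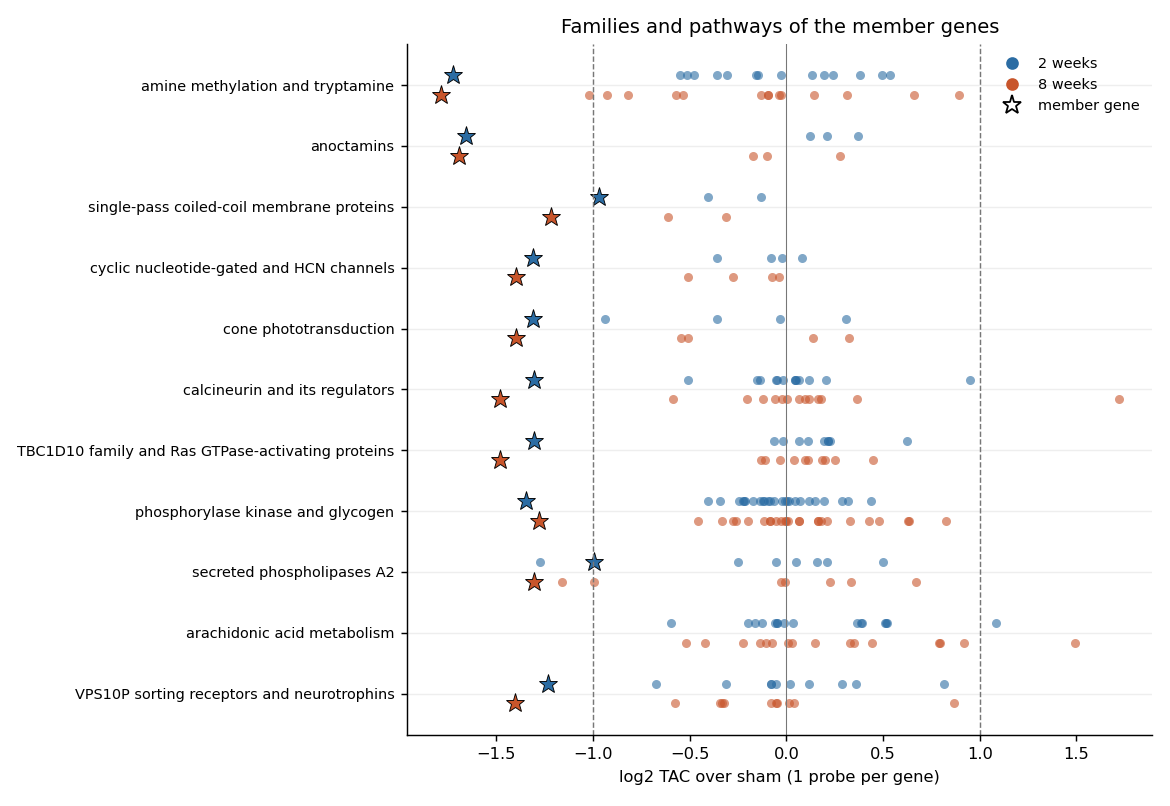
Log2 ratio of TAC over sham at 2 weeks (blue) and 8 weeks (orange) of every measured gene of 11 lists around the 8 genes, 1 probe per gene, with stars for the 8 genes and dashed lines at 2-fold. In each list that holds one of them the star is the lowest point or, among the secreted phospholipases at 2 weeks, the second from the lowest. The 8 genes were chosen for falls on these arrays, so a low place follows largely from the choice. In arachidonic acid metabolism, which holds none, the values run from -0.60 to 1.49.

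Markers of other cell types were measured in the same hearts. Their sums over a list weigh the brightest probes most, and the medians weigh each measured gene alike. Of the lymphocyte markers, known for cells that express Tbc1d10c, 0 of 10 measured at 2 weeks and 0 of 11 at 8 weeks were over 2-fold lower, with medians of 0.40 and 0.18, and Cd2 was over 2-fold higher at 2 weeks with 1.27. The sum of the 14 lymphocyte markers was 22.3 and 22.2 times the 75th percentile on the sham arrays and 23.0 and 20.2 on the TAC arrays, with 93.1% of the first of these sums from Cd4, Nkg7 and Cd3e. At 8 weeks the sum was thus lower after TAC while the median over the measured markers was higher. Cd3g and Cd8a were above background on none. The 10 cardiomyocyte markers had medians of -0.12 and -0.18, with 0 called, and sums of 10836 and 10237 in sham against 10157 and 9083 after TAC. The 8 nerve and glia markers, of which 6 were measured, had medians of -0.51 and -0.41 and sums of 10.6 and 11.5 in sham against 7.37 and 6.19 after TAC. Of these Dbh, the dopamine beta-hydroxylase of sympathetic nerves, was over 2-fold lower at 8 weeks, with -0.76 and -1.63, while Npy and Prph were above background on none. The 8 fibroblast markers had medians of 0.89 and 0.85 and sums of 208 and 232 in sham against 287 and 339 after TAC, and the 12 macrophage markers medians of 0.44 and 0.42 and sums of 54.0 and 56.2 against 68.9 and 74.9. The part of these shifts in the levels of the 8 genes was not tested.

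Near the 8 genes on the chromosome, Pla2g2c and Ubxn10 beside Pla2g5 and 1 probe of Arntl2 beside Smco2 were lower after TAC without meeting the rule. Other neighbors went the other way. Ackr2 near Ano10 had 1.13 at 2 weeks and 0.48 at 8 weeks. A probe of Mansc4 near Smco2 was well above background only after TAC at 8 weeks, at 0.42 times the 75th percentile against 0.014 in sham. Probes of Vwa5b1 near Pla2g5 and Gask1a near Ano10 were also well above background on TAC arrays only. Of the 5 protein-coding genes on each side, 79 had a probe and 60 were measured on all arrays, and 0 of the 60 were over 2-fold lower at both times at the probe of highest signal, against 0.19% of 14247 genes. So low a share leaves about none to be found among 60, and nothing is read from the 0. Their median log2 changes were -0.02 at 2 weeks and -0.01 at 8 weeks. The lowest values were those of Pla2g2c, which lies 54.7 kb from Pla2g5 within the cluster of secreted phospholipase genes. Between Pla2g2c and Pla2g5 lie Pla2g2f and Pla2g2d, with 0.16 and 0.50 at 2 weeks and -0.01 and 0.33 at 8 weeks. Ubxn10, 60.8 kb from Pla2g5, was well above background on the sham arrays only, so TAC was lower by at least 2.81-fold at 2 weeks and by at least 17.7-fold at 8 weeks, the bound being the lowest signal well above background or the probe's own. Its sham pools were themselves far apart, at 0.14 and 0.83 times the 75th percentile. On the other side Pla2g2e and Otud3 had 0.21 and 0.43 at 2 weeks and 0.67 and 0.61 at 8 weeks. Arntl2, a paralog of the clock gene Arntl that lies 16.6 kb from Smco2, had probes that differed. One was well above background on the 8-week arrays only and had -2.4 there, from 0.27 to 0.051 times the 75th percentile, while its probe of highest signal had -0.10 and -0.16 and a further probe was above background on no array.

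**Figure D5:**
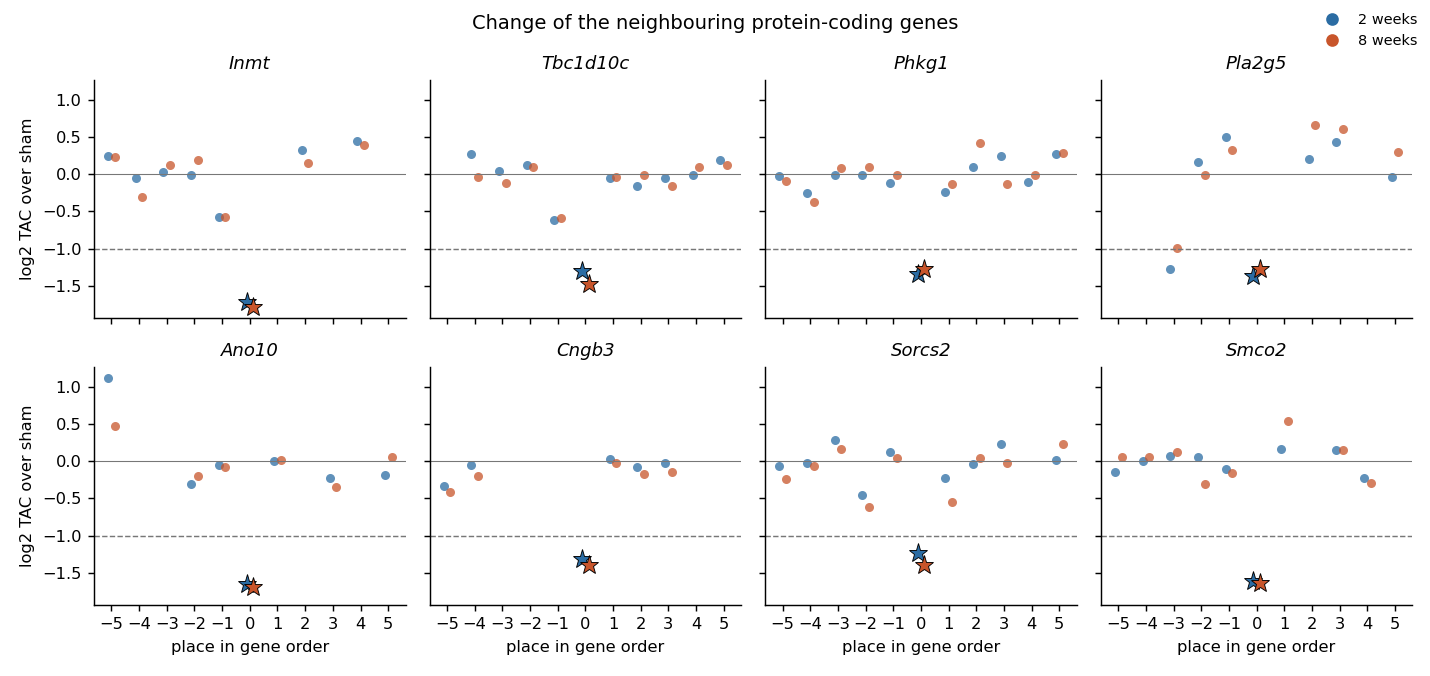
Log2 ratio of TAC over sham at 2 weeks (blue) and 8 weeks (orange) of the measured protein-coding genes among the 5 on each side of each of the 8 genes, by place in gene order on GRCm38, with stars for the gene itself at its chosen probe. The neighbors lie between -1.27 and 1.13, and those of Phkg1, Ano10, Cngb3 and Smco2 all lie above -0.42.

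Likeness was measured as the Euclidean distance between the centered log2 levels of the genes over the 4 arrays, at the chosen probe for the 8 genes and over 14247 genes measured on all arrays. Pla2g5 and Phkg1 were nearest to each other, at a distance of 0.04, and so were Smco2 and Ano10, at 0.08. Tbc1d10c and Sorcs2 were nearest to each other, at 0.10, with Tmprss13, a transmembrane serine protease, next for Tbc1d10c at 0.12 and Phkg1 next for Sorcs2 at 0.14. Prss55, a serine protease, came next for both Phkg1, at 0.09, and Pla2g5, at 0.11. Inmt lay nearest to Smco2, at 0.24, followed by Ano10 at 0.27, and it was itself the next after the nearest for both. Cngb3 stood farthest from the other 7, at 0.49 to 0.74, and its nearest genes were Sbk3, a kinase gene, at 0.21 and Lgals4, a galectin gene, also at 0.21. With 4 arrays and genes chosen for the same direction at both times, such distances rank patterns and carry no test.

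Just inside the rule, by the smaller of both folds, lay Atp6ap1l at 2.02-fold, Mrgprh at 2.03-fold and a probe for an intergenic region at 2.02-fold. Just outside it lay the brighter Pla2g5 probe, 0610040J01Rik and Pla2g2c, all at 1.99-fold. Probes spotted more than once on an array gave an SD of 0.16 for the log2 ratio between a pair of their spots, 0.29 for signals under 0.25 times the 75th percentile and 0.09 for signals over it. That SD covers the spots of an array only, not mice or hybridizations.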

How the data were processed

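Pooled total RNA of mouse hearts was measured on 4 one-color Agilent arrays, 1 per condition. The arrays share their slide and their scan, so neither could be tested as a batch. The authors deposited the scanner files, made with Agilent Feature Extraction 10.7.3.1 per the file headers and 9.1 per the labels. The deposited processed signal is an intensity per spot after background subtraction, not normalized between arrays. The deposited value table is this intensity multiplied by another constant for every array, on a linear scale. Its column medians were 101.2 (sham, 2 weeks), 106.3 (TAC, 2 weeks), 103.7 (sham, 8 weeks) and 97.2 (TAC, 8 weeks), and why each array has its own constant is not stated. The methods name GeneSpring GX11 and no normalization.

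From these values log2 was taken, outlier spots were left out, spots of a probe were averaged, and log2 of the 75th percentile of all non-control probes was subtracted on each array. The files hold no gene symbols: 26582 of 55681 probes were named through RefSeq transcripts (GRCm38.p6), and 29358 with Ensembl transcripts of GENCODE added. Of 263 genes in the lists, 6 had no probe. The 8 genes, the lists and the comparisons were chosen with earlier results of these data known. The genes named are the 8 genes and all their probes, called genes, partners and paralogs of the lists, the 2 genes nearest in pattern to each, the hypertrophy genes, and the genes at the edges of the 2-fold threshold. Ccl11, Nmb, Clec18a, Ccbe1, Filip1l, Lgals4 as a gene with several probes, other neighbors, some uncalled cone genes and uncalled markers were named after their values were seen. No test was made, since each condition has 1 array, and their number limits the precision. Alternatives were other scalings, normexp background correction (offset 50, limma 3.58.1, R 4.3.3), the deposited table, other filters and folds, and other ways to pick a probe. Added after seeing the data were normexp and the offset each alone, and a gene's probe picked by the selection rule. The calling was tested on simulated arrays with known changes, deeper than most falls here and with the same noise for dim and bright probes. That checks the code and not the calls made in these data. Python 3.11.15, pandas 2.3.3 and numpy 2.4.6 were used.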

Additional observations from a re-analysis of the deposited data

How the results depend on the processing

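The count of 6 of 8 genes over 2-fold lower at both times was 2 at 3-fold and 3 when the probe with the smallest change stood for a gene. Under the latter choice Ano10 had 0.056 at 2 weeks and 0.090 at 8 weeks, the opposite direction. The gene count was 4 with normexp and its offset, 4 with the offset alone and 7 with normexp alone. It rose to 8 when arrays were scaled by their medians, and was also 8 at 1.5-fold. Of the 13 probes, 8 met the rule, against 4 with normexp background correction (offset 50), 4 with the offset alone, 8 with normexp alone and 3 at 3-fold. With arrays scaled by their medians 10 of the 13 probes passed, and at 1.5-fold 11 did. Over all probes 38 were lower at both times, 193 at 2 weeks and 305 at 8 weeks. These became 8, 49 and 58 with normexp and its offset, 11, 68 and 76 with the offset alone, 22, 122 and 184 with normexp alone, 304, 937 and 1474 with 1.5-fold, 5, 64 and 62 with 3-fold, 69, 557 and 985 when only sham had to be well above background, and 294, 1651 and 3139 without a filter on dim probes. Without normalization between arrays 184 were lower at 8 weeks, and the median of all measured probes moved to 0.13 at 8 weeks. Under the other scalings, the normexp and offset settings, the deposited table and with outlier spots kept, the log2 change of each gene at the probe of highest signal stayed negative, between -1.80 and -0.41. The causes of these moves were not tested. No paired analysis was possible because each condition has 1 array. The offset alone and normexp alone were chosen after seeing the data.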

Other observations

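Other marker lists were measured in the same hearts and are given as medians of the log2 change at 2 and 8 weeks. The 8 measured skeletal muscle markers had medians of 0.01 and -0.43, and Acta1, skeletal actin, at 3.09 and 3.41, and Mybpc2, a fast-muscle myosin-binding protein, at 1.95 and 1.64, passed 2-fold upward at 2 and at 8 weeks. The atrial markers, 5 measured at 2 weeks and 4 at 8 weeks, had medians of 0.26 and 0.33, and Nppa, at 1.84 and 2.65, and Dkk3, at 1.63 and 1.17, were over 2-fold higher at both. The 4 brown fat markers had medians of -0.08 and 0.37, and Dio2, the deiodinase that activates thyroid hormone, was over 2-fold higher at both, at 2.4 and 3.64. The 2 mesothelial markers had medians of 0.76 and -0.07, and Msln was over 2-fold higher at 2 weeks, at 1.12 and -0.56. No measured gene of the remaining lists was called: medians were -0.42 and -0.01 for 3 white fat, -0.28 and 0.08 for 3 erythroid, 0.21 and 0.00 for 8 endothelial, and 0.30 and 0.07 for 8 smooth muscle and pericyte markers.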
